A study of Ovis aries with 24 samples.

Results

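The genes described here encode activin and inhibin subunits, follistatin family proteins and activin receptors, and were read in cultured sheep pituitary cells. They are the subunit genes INHA, INHBA and INHBB, the follistatin family genes FST, FSTL3 and FSTL1, and the receptor genes ACVR1, ACVR1B, ACVR2A and ACVR2B. Members were chosen by name in the count tables, and 9 of the 10 names matched 1 feature each among the 27054 features counted. No feature carried the name INHBB, the subunit gene of activin B, so it is not analysed here.

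The 24 RNA-seq libraries came from pituitaries of ovariectomized Western white faced ewes. The tissue was dispersed, the cells were plated on plastic, and an adenovirus that directs GFP to gonadotropes was added to every culture 24 hours later. Another 3 days on, estradiol (E2, 10 nM) or its ethanol vehicle was given for 6 hours. There were 4 groups of 6 libraries: sorted cells with vehicle, sorted cells with E2, unsorted cells with vehicle and unsorted cells with E2. Sorted cells are those labelled as gonadotropes and collected by fluorescence-activated cell sorting. Whether unsorted cells also passed through the sorter is not stated. All groups therefore share ovariectomy, culture and the virus, and the cells counted as gonadotropes are those in which the viral GFP was seen. The labels number the replicates without saying that they are separate animals or cultures, so p-values measure the spread between these samples, which may be technical.

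Activins are dimers of beta subunits, and inhibins pair a beta subunit with the alpha subunit encoded by INHA. Activin binds the type II receptors ACVR2A and ACVR2B, which recruit the type I receptor ACVR1B, and the complex activates SMAD2 and SMAD3. In gonadotropes this pathway drives FSHB, the beta subunit gene of follicle-stimulating hormone, while follistatin sequesters activin and inhibin competes for its receptors.

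Total counts were 4.19 to 6.19 M reads in the libraries of replicates 1 to 3 and 19.2 to 37.0 M in those of replicates 4 to 6, with both depths in all groups. Levels are CPM, counts scaled to a common library size, after TMM normalisation over all libraries. Genes differ in transcript length, so CPM were compared between groups for the same gene and not between genes. The label of the sort was checked against markers. Of 9 gonadotrope markers listed, 6 had a feature and 5 were tested, and 5 of 5 were higher in sorted than in unsorted vehicle cells. The summed level of the 6 with a feature ranged from 2494 to 5635 CPM in sorted and from 292 to 1324 CPM in unsorted vehicle libraries. Markers of other hormone cells were higher in sorted cells too: 3 of 3 lactotrope, 2 of 3 somatotrope, 2 of 3 thyrotrope and 1 of 3 corticotrope markers were called higher with vehicle and 0 lower, and with the replicate number as a block 3 of 3 on each of these lists. Some markers stand on more than 1 list. The lactotrope markers summed to between 67764 and 178134 CPM in sorted and to between 39173 and 90668 CPM in unsorted vehicle libraries. No marker on any of the lists of other cell types was at 0 reads throughout a group.

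The first comparison asks what set the sorted cells apart from the whole culture, with vehicle. INHBA, FSTL3 and FSTL1 were several-fold lower in sorted cells, and the receptor genes ACVR1B and ACVR2B were higher. By edgeR's quasi-likelihood test with Benjamini-Hochberg adjustment over all genes tested (called at an adjusted p under 0.05), 2 of the 9 members were higher and 3 lower. Of all 14468 genes tested, 50.2% were called in this comparison (24.4% higher and 25.8% lower), so the count of members called is close to the background. The median log2 difference was -0.14 over the members and 0.016 over all genes. In bulk RNA, fewer cells of a type and less RNA per cell cannot be told apart.

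INHBA (ENSOARG00000017475) encodes the subunit of activin A. Its level was 8.71 CPM in the lowest, 11.3 in the median and 15.9 in the highest sorted vehicle library, and 48.2, 65.9 and 81.2 CPM in the unsorted ones. The groups did not overlap, and the highest sorted library lay far under the lowest unsorted one. The difference was -2.49 ± 0.17 on the log2 scale (SE; edgeR adjusted p = 1.05e-07), which is 5.61-fold lower in sorted cells, and it was negative in 6 of 6 same-numbered pairs. In E2-treated cells the sorted values were 6.41, 11.9 and 18.8 CPM (lowest, median and highest) and the unsorted values 54.3, 64.0 and 71.1 CPM. The difference there was -2.44 ± 0.23 (edgeR adjusted p = 2.29e-06), again without overlap. The vehicle and E2 comparisons use different libraries, but same-numbered vehicle and E2 libraries correlated at r = 0.563 to 0.838 after centring each group, so they are not independent of each other.

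INHA (ENSOARG00000020243), the alpha subunit that turns a beta subunit into inhibin, had the lowest counts of the members. It had between 3 and 112 reads in a library. The level was 0.854, 2.07 and 3.12 CPM (lowest, median and highest) in sorted vehicle and 0.997, 2.20 and 3.24 CPM in unsorted vehicle libraries. These ranges overlapped almost entirely. The sorted minus unsorted difference was -0.14 ± 0.30 log2 with vehicle (edgeR adjusted p = 0.719) and 0.19 ± 0.32 with E2 (edgeR adjusted p = 0.646). The 95% interval of the sorted to unsorted ratio with vehicle ran from 0.600 to 1.37, and differences within it were not detectable at these counts.

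The subunit genes stood in different proportions in sorted and unsorted cells. For each INHA read there were 3.71 to 10.2 INHBA reads (median 5.45) in sorted vehicle and 21.8 to 60.8 (median 27.2) in unsorted vehicle libraries. With E2 the medians were 5.72 and 30.7 INHBA reads per INHA read. The ranges did not overlap with either treatment, and these ratios depend on the lengths of both transcripts, so only the change between groups can be read.

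**Figure D1:**
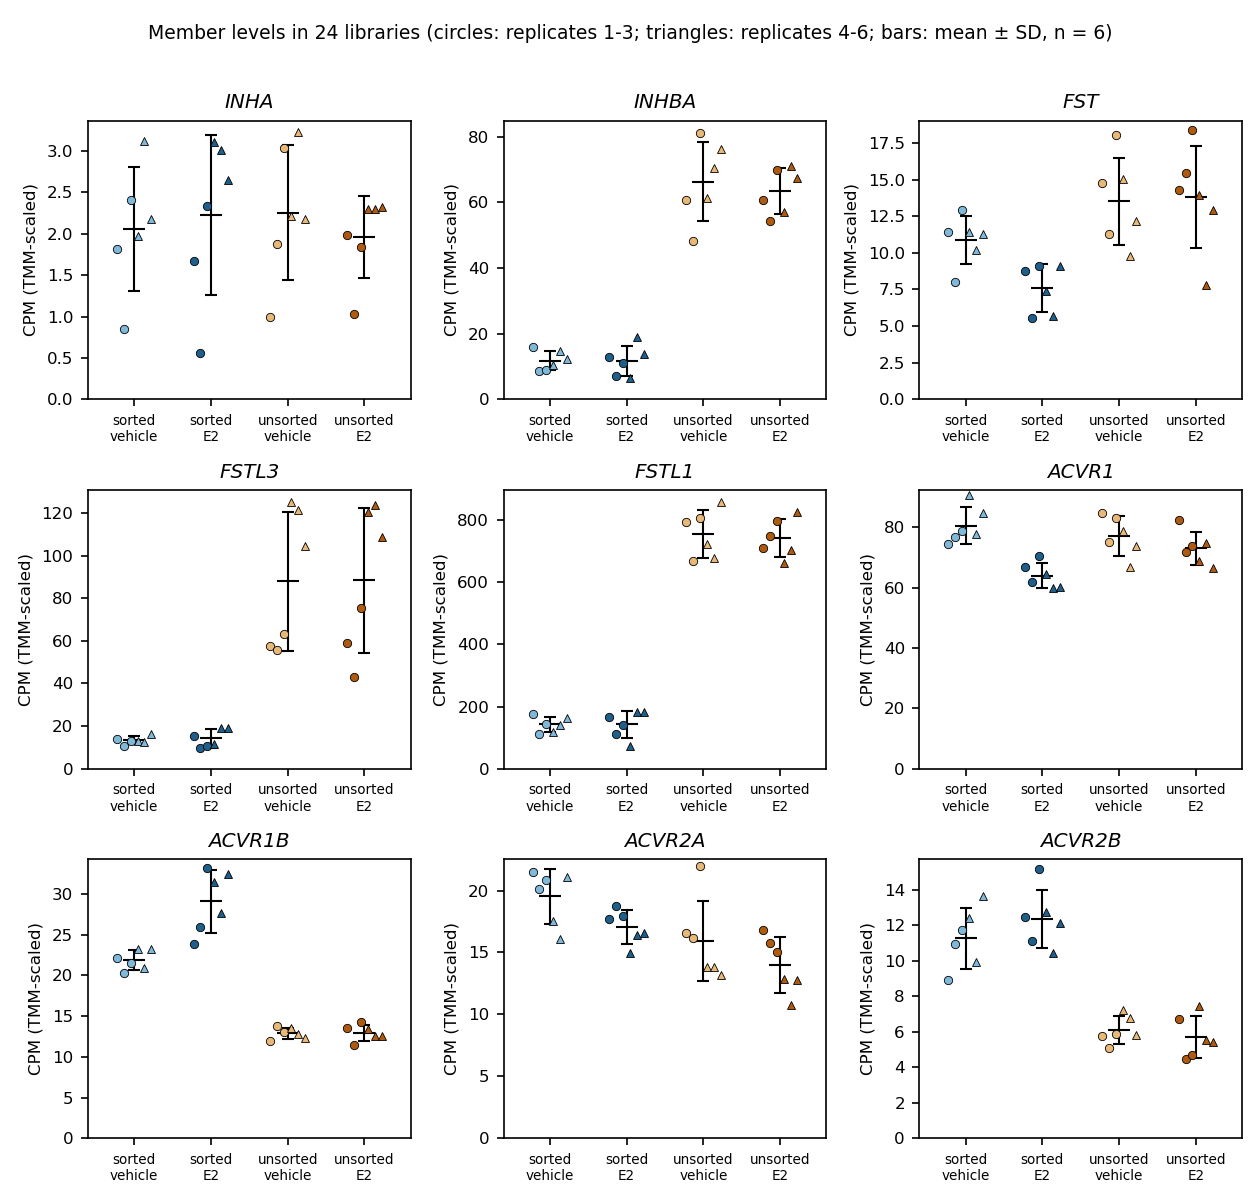
TMM-scaled CPM of the 9 members, 1 panel per gene, on axes from 0. Points are the 6 libraries of each group (circles, replicates 1 to 3; triangles, replicates 4 to 6), bars are the mean ± SD, and the sorted and unsorted points of INHBA, FSTL3 and FSTL1 lie apart while those of INHA lie together.

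Among the follistatin family genes, FSTL3 (ENSOARG00000009153), a secreted follistatin relative that binds activin, showed a similar difference to INHBA. Sorted vehicle libraries held 10.6, 13.2 and 16.4 CPM (lowest, median and highest) and unsorted vehicle libraries 55.9, 83.9 and 125 CPM. The groups did not overlap, and the log2 difference was -2.72 ± 0.23 (edgeR adjusted p = 4.36e-07), or 6.61-fold lower in sorted cells. With E2 it was -2.62 ± 0.28 (edgeR adjusted p = 6.31e-06). The unsorted level also differed between the replicate sets, although CPM are scaled to library size. With vehicle it was 55.9 to 63.2 CPM in replicates 1 to 3 and 105 to 125 CPM in replicates 4 to 6. Within these sets, fitted separately, the vehicle difference was -2.21 and -3.07 log2. The sets also lay apart over all genes, on principal component 2 of log2 CPM (17.6% of the variance). Replicates 1 to 3 lay at 14.5 to 54.6 there and replicates 4 to 6 at -43.3 to -26.7. On principal component 1 (50.1%), which parted sorted from unsorted libraries, the sets lay apart among sorted libraries only. Sorted replicates 1 to 3 lay at -44.8 to -30.8 and sorted replicates 4 to 6 at -92.4 to -63.6. The unsorted sets overlapped, at 49.9 to 64.0 and 45.3 to 68.3. What differs between the sets besides depth was not tested.

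FSTL1 (ENSOARG00000019900) encodes a matrix-associated glycoprotein of the follistatin family. Its level was 113, 143 and 177 CPM (lowest, median and highest) in sorted vehicle and 666, 758 and 856 CPM in unsorted vehicle libraries. No sorted library came near the unsorted range, and the difference was -2.40 ± 0.12 log2 (edgeR adjusted p = 1.89e-08), 5.28-fold lower. With E2 it was -2.38 ± 0.19 (edgeR adjusted p = 9.28e-07).

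Fibroblast, pericyte and endothelial markers were mostly lower in sorted cells beside these 3 genes, and other lists were mixed. The 10 fibroblast and pericyte markers summed to 953 to 1961 CPM in sorted vehicle and to 5679 to 13500 CPM in unsorted vehicle libraries. Of the 9 tested, 6 were lower and 1 higher in sorted vehicle cells, with a median log2 difference of -2.67. With E2, 6 were lower and 0 higher with a median of -2.50. Among sorted E2 libraries, replicate 4 had the lowest INHBA (6.41 CPM), the lowest FSTL1 (74.4 CPM) and the lowest marker sum (978 CPM), but not the lowest FSTL3, which was 11.5 CPM there against 9.83 CPM in replicate 2 and 10.5 CPM in replicate 3. With vehicle, endothelial markers were lower for 4 of 6 tested (median -1.26 log2) and higher for 0. Of the folliculostellate and stem cell markers tested, 3 of 5 were lower and 2 higher (median -1.36), and of the immune markers 1 of 4 was lower and 1 higher (median -0.46). The folliculostellate and stem cell markers summed to 1251 to 1783 CPM (median 1583) in sorted vehicle libraries. In unsorted vehicle libraries that sum was 1182 to 1568 CPM (median 1235). The part of these cell types in the differences of INHBA, FSTL3 and FSTL1 was not tested.

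FST (ENSOARG00000008119), the gene of follistatin itself, did not share the several-fold difference. Sorted vehicle libraries held 8.03, 11.4 and 12.9 CPM (lowest, median and highest) and unsorted vehicle libraries 9.79, 13.5 and 18.0 CPM. The ranges overlapped, and the difference of -0.31 ± 0.17 log2 did not pass (edgeR adjusted p = 0.138). Taking the replicate number as a block it was -0.29 ± 0.11 and passed (edgeR adjusted p = 0.0415). With E2, the sorted libraries held 5.57, 8.06 and 9.11 CPM and the unsorted ones 7.78, 14.1 and 18.4 CPM. FST was then lower in sorted cells by edgeR, at -0.86 ± 0.21 log2 (adjusted p = 0.0035), in 6 of 6 same-numbered pairs, although the 2 ranges still overlapped.

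Relative to follistatin, activin A transcript was scarcer in the sorted cells. With vehicle there were 0.693 to 1.44 INHBA reads per FST read (median 1.08) in sorted and 4.07 to 7.21 (median 4.39) in unsorted libraries. With E2 the ranges were 0.870 to 3.30 (median 1.38) and 3.52 to 9.14 (median 4.17). Neither pair of ranges overlapped. FSTL3 also took a smaller share: the median was 1.24 FSTL3 reads per FST read in the sorted against 6.63 in the unsorted vehicle libraries. With E2 these medians were 1.76 and 6.25, and the ranges overlapped, at 1.15 to 3.39 in sorted and 2.80 to 15.9 in unsorted libraries.

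**Figure D2:**
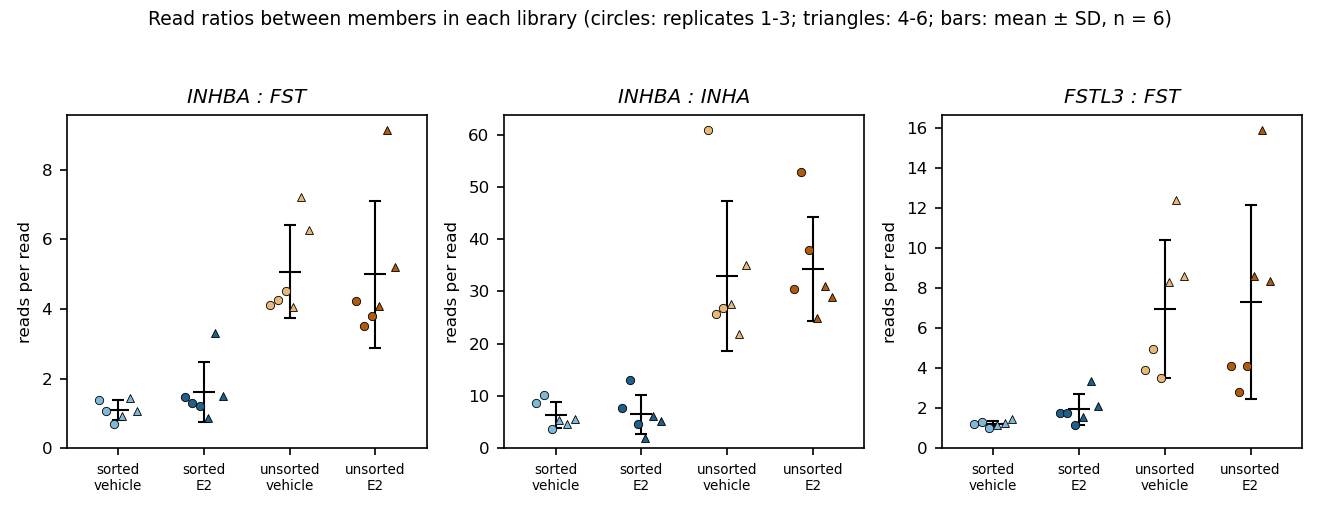
Reads of INHBA per read of FST, of INHBA per read of INHA and of FSTL3 per read of FST in each library, on axes from 0. Points are the 6 libraries of each group (circles, replicates 1 to 3; triangles, replicates 4 to 6) and bars are the mean ± SD. Sorted points lie under unsorted points of the same treatment, except that 1 sorted E2 library reached 3.39 FSTL3 reads per FST read and 1 unsorted E2 library had 2.80.

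The receptor genes went the other way or showed little difference. ACVR1B (ENSOARG00000017232), the type I receptor through which activin signals, stood at 20.3, 21.9 and 23.3 CPM (lowest, median and highest) in sorted vehicle and 11.96, 12.9 and 13.7 CPM in unsorted vehicle libraries. Both groups were tight and well apart. The difference was 0.76 ± 0.10 log2 (edgeR adjusted p = 2.11e-05), or 1.69-fold higher in sorted cells, in 6 of 6 pairs. With E2 the difference was 1.16 ± 0.11 (edgeR adjusted p = 3.42e-06), or 2.23-fold.

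ACVR2B (ENSOARG00000001408), a type II receptor, held 8.94, 11.3 and 13.7 CPM (lowest, median and highest) in sorted vehicle and 5.08, 5.87 and 7.23 CPM in unsorted vehicle libraries. Sorted libraries were all above unsorted ones. The difference was 0.87 ± 0.15 log2 with vehicle (edgeR adjusted p = 0.00026), or 1.82-fold, and 1.09 ± 0.16 with E2 (edgeR adjusted p = 9.93e-05), or 2.13-fold. ACVR2A (ENSOARG00000009841), the other activin type II receptor, was at 16.1, 20.5 and 21.5 CPM in sorted vehicle and 13.2, 15.0 and 21.9 CPM in unsorted vehicle libraries, with overlap. Its difference was 0.30 ± 0.15 log2 with vehicle (edgeR adjusted p = 0.102) and 0.28 ± 0.13 with E2 (edgeR adjusted p = 0.0815). With the replicate block these were 0.31 ± 0.11 and 0.30 ± 0.10 and both passed (edgeR adjusted p = 0.0272 and 0.0196). Beside the higher ACVR1B and ACVR2B, the median log2 difference with vehicle was 2.45 over the gonadotrope markers, 0.86 over each of the lactotrope, somatotrope and corticotrope lists and 0.87 over the thyrotrope list. With E2 these medians were 2.09, 0.61, 0.61, 0.83 and 0.37 in the same order of lists. The lactotrope and somatotrope lists share POU1F1, whose value is the median of both, and the lactotrope and thyrotrope lists share TRHR. The part of these cell types in the receptor differences was not tested.

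ACVR1 (ENSOARG00000007733) is a type I receptor better known for binding bone morphogenetic proteins. Its level was 74.5, 78.3 and 90.9 CPM (lowest, median and highest) in sorted vehicle and 66.8, 77.0 and 84.7 CPM in unsorted vehicle libraries. These ranges overlapped, at a difference of 0.061 ± 0.084 log2 (edgeR adjusted p = 0.564). The replicate sets differed, fitted alone with the replicate block. The difference was -0.071 in replicates 1 to 3 (edgeR adjusted p = 0.579) and 0.19 in replicates 4 to 6 (edgeR adjusted p = 0.0438). With E2 the level of ACVR1 was lower in sorted cells, at -0.20 ± 0.080 log2 (edgeR adjusted p = 0.0493), in 6 of 6 pairs. That call sat at the threshold: it was kept in 3 of 12 fits with 1 library left out, those without sorted E2 replicate 3, unsorted E2 replicate 4 or unsorted E2 replicate 6, and the adjusted p reached 0.124.

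In E2-treated cells, 2 of 9 members were thus higher and 5 lower in sorted than unsorted cells, while 51.8% of the 14545 genes tested were called (25.8% higher and 26% lower). The share of genes whose 2 groups did not overlap was 27.8% with vehicle and 28.7% with E2. With the replicate block the members called were 3 higher and 4 lower with vehicle, where 63.6% of all genes were called (32.5% higher and 31.1% lower). With E2 they were 3 higher and 5 lower, where 65.7% of all genes were called (33.9% higher and 31.8% lower).

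**Figure D3:**
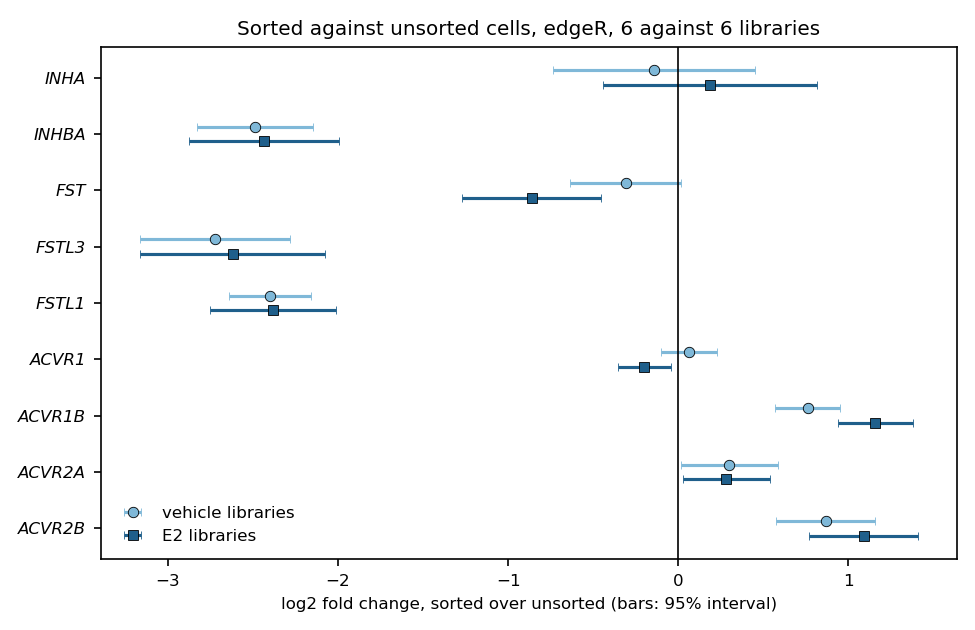
Log2 difference of sorted minus unsorted cells for each of the 9 members, with vehicle and with E2. Points are edgeR estimates, bars are the 95% interval, and INHBA, FSTL3 and FSTL1 lie between -2.72 and -2.38 while ACVR1B and ACVR2B lie above 0.

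The second comparison asks what differed after 6 hours of E2 in the sorted cells. ACVR1 fell to 0.794 times its vehicle level. FST was lower and ACVR1B higher with E2 in each of the 6 same-numbered pairs, and both passed the test once the pairs were taken as a block. Without the block, 0 members were higher and 1 lower, where 1.37% of all 14334 genes were called (1.11% higher and 0.258% lower). With it, 1 was higher and 2 lower, where 13.2% of genes were called (7.03% higher and 6.2% lower).

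ACVR1 was at 74.5, 78.3 and 90.9 CPM (lowest, median and highest) in sorted vehicle and 59.9, 63.2 and 70.5 CPM in sorted E2 libraries. Every E2 library was under every vehicle library, as for 1.54% of all genes in either direction. The log2 difference was -0.33 ± 0.07 (edgeR adjusted p = 0.0420), lower in 6 of 6 pairs. The call did not hold in 10 of 12 fits with 1 library left out. It held without sorted E2 replicate 3 (edgeR adjusted p = 0.0377) and without sorted vehicle replicate 1 (0.0493), and the adjusted p was at most 0.122. With the block the difference was -0.35 ± 0.05 (edgeR adjusted p = 6.16e-05), and it was called with each pair left out. The difference was -0.20 log2 in replicates 1 to 3 and -0.46 in replicates 4 to 6.

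ACVR1B was at 20.3, 21.9 and 23.3 CPM (lowest, median and highest) in sorted vehicle and 23.8, 29.5 and 33.1 CPM in sorted E2 libraries. The groups did not overlap. The difference of 0.41 ± 0.10 log2, or 1.33-fold, did not pass without the block (edgeR adjusted p = 0.0634). With it the difference was 0.41 ± 0.07 (edgeR adjusted p = 0.000195), and without it the gene also passed with DESeq2 (adjusted p = 0.00378) and with all 24 libraries in the edgeR fit (adjusted p = 0.0127). The single pairs ranged from 0.10 to 0.62, and the 2 depth sets gave 0.37 and 0.43.

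FST was at 8.03, 11.4 and 12.9 CPM (lowest, median and highest) in sorted vehicle and 5.57, 8.06 and 9.11 CPM in sorted E2 libraries. The lowest vehicle library lay within the E2 range, yet each E2 library was under the vehicle library of its own number. The difference was -0.52 ± 0.17 log2 without the block (edgeR adjusted p = 0.246) and -0.54 ± 0.10 with it (edgeR adjusted p = 0.000655). The pairs ranged from -0.83 to -0.31, and the depth sets gave -0.46 and -0.59. Beside these 3 genes, 0 of the 9 tested fibroblast and pericyte markers were called either way in sorted cells with the block, with a median log2 difference of 0.0051. Other lists did hold called markers in that fit. Of the 3 lactotrope markers 2 were lower (TRHR and POU1F1, list median -0.76). Of the 3 thyrotrope markers 2 were lower and 1 higher (median -0.30), and of the 3 somatotrope markers 1 was lower and 1 higher (median -0.078). TRHR is also 1 of the 2 lower thyrotrope markers and POU1F1 is the lower somatotrope marker, so these lists are not separate. Of the folliculostellate and stem cell markers 2 of 5 were lower (median -0.13), and of the gonadotrope markers 1 of 5 was lower and 1 higher (median -0.024). No corticotrope, endothelial or immune marker was called. The part of these cell types in the E2 differences of FST, ACVR1 and ACVR1B was not tested.

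The authors' deposited table for this comparison lists log2 changes of -0.32 for ACVR1, 0.42 for ACVR1B and -0.51 for FST. In the authors' deposited table their adjusted p-values are 0.576, 0.512 and 1, so none of the 3 is called there.

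The other members did not pass in sorted cells with or without the block. INHBA was at 11.8 ± 2.99 CPM (SD, n = 6) with vehicle and 11.7 ± 4.58 CPM with E2, a ratio of 0.988 with a 95% interval of 0.704 to 1.39. FSTL1 had a ratio of 0.996 (0.767 to 1.29) and FSTL3 of 1.07 (0.840 to 1.37). INHA had a ratio of 1.096 with the widest interval of the 9 members, from 0.685 to 1.76. For the type II receptors, ACVR2A had a ratio of 0.873 (0.753 to 1.01) and ACVR2B of 1.09 (0.910 to 1.31). ACVR2A was lower with E2 in 5 of 6 pairs. The intervals of all these genes, ACVR2A included, reach above and under 1.

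In unsorted cells, 0 members were called with or without the block, by DESeq2 or by edgeR, and 0 of the 9 had an unadjusted p under 0.05 in the edgeR fit without the block. Over all 15083 genes 0.245% were called without the block and 5.24% with it, and 425 had an unadjusted p under 0.05. FST was at 13.5 ± 2.99 CPM (SD, n = 6) with vehicle and 13.8 ± 3.49 CPM with E2. ACVR1B was at 12.9 ± 0.696 and 13.0 ± 0.966 CPM. ACVR1 was at 77.1 ± 6.61 and 73.1 ± 5.54 CPM. The E2 differences were 0.024 ± 0.20, 0.0075 ± 0.10 and -0.077 ± 0.086 log2 in that order, each smaller than its SE.

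**Figure D4:**
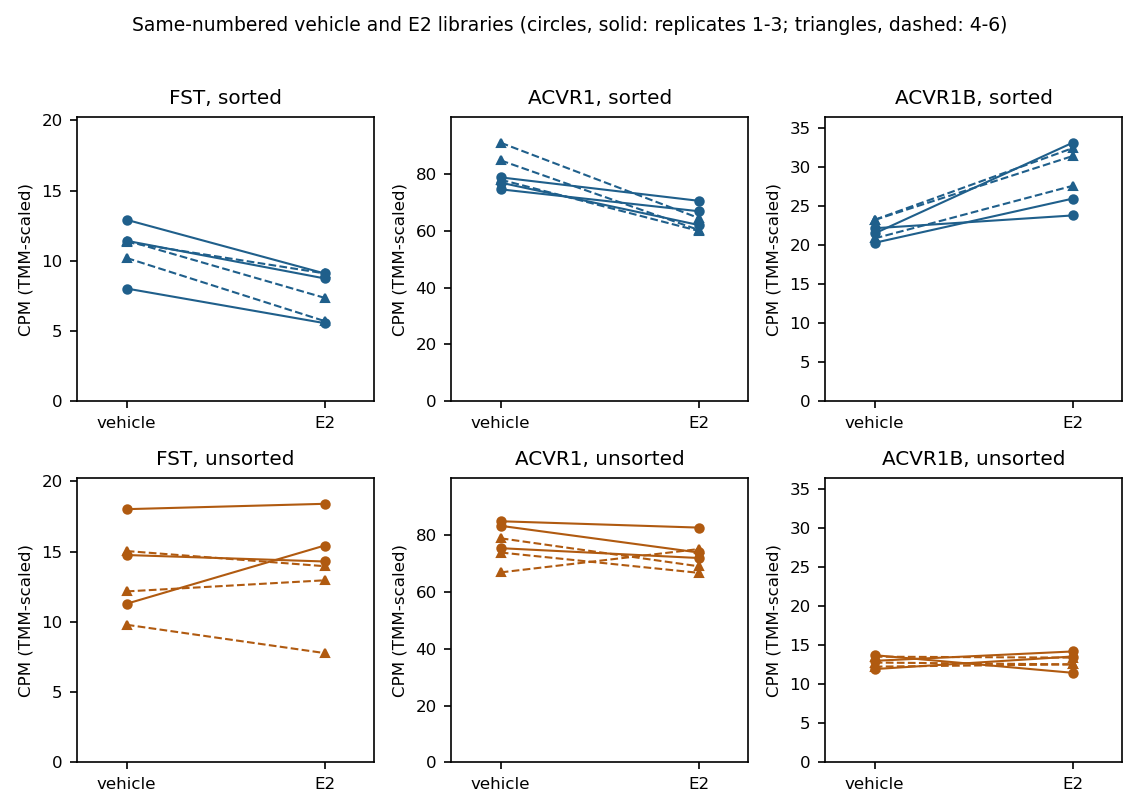
TMM-scaled CPM of FST, ACVR1 and ACVR1B with vehicle and with E2 in sorted (upper row) and unsorted cells (lower row), with axes from 0. Each line joins the 2 libraries of 1 replicate number (circles, replicates 1 to 3; triangles, replicates 4 to 6), and in sorted cells all 6 lines fall for FST and ACVR1 and rise for ACVR1B.

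Whether E2 acted differently in sorted and unsorted cells was tested directly, as the difference of the 2 E2 effects over all 24 libraries. For FST it was -0.55 ± 0.26 log2 (edgeR unadjusted p = 0.0484) and negative in 6 of 6 replicate numbers. For ACVR1B it was 0.40 ± 0.13 (edgeR unadjusted p = 0.00457) and positive in 5 of 6, and for ACVR1 it was -0.26 ± 0.10 (edgeR unadjusted p = 0.0207) and negative in 5 of 6. None passed after adjustment over all 15134 genes: the edgeR adjusted p was 1.00 for each of them without the block. With it, the edgeR adjusted p was 0.342 for FST, 0.167 for ACVR1B and 0.403 for ACVR1. That block was the replicate number, shared by sorted and unsorted libraries. It did not model separate vehicle and E2 pairs within sorted and within unsorted cells, and no fit with those pairs was made. Same-numbered libraries correlated at r = 0.563 to 0.838 between treatments. Between sorted and unsorted cells they correlated at r = 0.284 to 0.499. Among all genes 0.0264% were called without the block and 0.463% with it, and 236 had an unadjusted p under 0.05 without it. In these fits, a difference in E2 effect between sorted and unsorted cells was not shown for any member. The larger sorted minus unsorted difference of FST with E2 than with vehicle is the same quantity and was likewise not shown to differ.

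The other genes of the pathway were read from a list of 30, of which 23 had a feature of that name and 19 were tested in each comparison. They cover further ligands, coreceptors, binding proteins, SMADs, SMAD partners and target genes. In sorted against unsorted vehicle cells 6 were higher and 7 lower, where 50.2% of all genes were called. Higher were FSHB (1.86 ± 0.40 log2), the inhibin coreceptor gene TGFBR3 (1.40 ± 0.22), the follistatin-like gene FSTL4 (1.16 ± 0.22), the activin E subunit gene INHBE (1.01 ± 0.24), IGSF1 (0.97 ± 0.11), which encodes a membrane glycoprotein of the pituitary, and the SMAD corepressor gene SKIL (0.74 ± 0.14). Lower were the corepressor genes TGIF1 (-2.60 ± 0.35) and SKI (-0.53 ± 0.11), and PMEPA1 (-2.14 ± 0.22), a feedback inhibitor of SMAD signalling. The ubiquitin ligase genes SMURF2 (-1.72 ± 0.21) and SMURF1 (-0.44 ± 0.16), the ligand gene GDF11 (-1.16 ± 0.14) and WFIKKN2 (-1.17 ± 0.41), whose protein binds GDF11, were also lower. Of these, the call of SMURF1 was lost in 6 of 12 and that of WFIKKN2 in 4 of 10 fits with 1 library left out. The calls of TGIF1, PMEPA1 and TGFBR3 held in each of 19 alternative fits, but their sizes varied. The log2 difference ranged from -3.45 to -1.61 for TGIF1, -2.49 to -1.61 for PMEPA1 and 0.85 to 1.82 for TGFBR3. TGIF1 had only 6 to 21 reads in a sorted vehicle library. With E2 the sort gave 6 higher and 6 lower, the background share being 51.8%. With the replicate block the counts were 7 higher and 8 lower with vehicle, adding the activin signal carriers SMAD2 (0.23 ± 0.08 log2, edgeR adjusted p = 0.0264) and SMAD3 (-0.66 ± 0.14, edgeR adjusted p = 0.00162). With E2 they were 8 higher and 7 lower, adding SMAD2 (0.19 ± 0.06, edgeR adjusted p = 0.0220), WFIKKN1 (0.68 ± 0.25, edgeR adjusted p = 0.0343) and BAMBI (-0.26 ± 0.10, edgeR adjusted p = 0.0488). Over all alternative fits with vehicle, SMAD2 ranged from 0.072 to 0.37 and SMAD3 from -0.91 to -0.31 log2. Both differences were largest in replicates 4 to 6 alone.

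In sorted cells with E2, 0 of these 19 were called without the block, against 1.37% of all genes. With it 4 rose and 1 fell, against 13.2% of all genes called. FSHB was at 74.1, 153 and 215 CPM (lowest, median and highest) with vehicle and 48.6, 79.4 and 125 CPM with E2, and its blocked difference was -0.84 ± 0.06 log2 (edgeR adjusted p = 7.14e-08). TGFBR3 was at 31.8, 55.3 and 99.8 CPM with vehicle and 43.4, 93.5 and 125 CPM with E2. The ranges overlapped, but E2 was higher in 6 of 6 pairs, at 0.63 ± 0.09 with the block (edgeR adjusted p = 0.000299). SMAD3, the signal carrier, was at 7.002, 10.7 and 15.0 CPM with vehicle and 7.79, 18.9 and 20.6 CPM with E2, with a blocked difference of 0.65 ± 0.10 (edgeR adjusted p = 9.58e-05). SKI differed by 0.35 ± 0.06 with the block (edgeR adjusted p = 0.000181). BAMBI, a decoy receptor gene, differed by 0.27 ± 0.09 (edgeR adjusted p = 0.0484), but it was called in only 2 of 6 blocked fits with 1 pair left out. In unsorted cells 0 of 19 were called without the block. With it 2 were, against 5.24% of all genes: FSTL4 rose by 0.54 ± 0.11 log2 (edgeR adjusted p = 0.0047) and FSHB fell, at -0.82 ± 0.06 (edgeR adjusted p = 1.47e-08).

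The genes whose levels ran most alike to the ligand and binding protein genes were named by the root mean square difference of group-blind, mean-centred log2 CPM over the 24 libraries, among 9663 genes with a mean of at least 5 CPM. For INHBA, which itself varied by 1.303 log2 on this measure, they were WWC2 (0.18), FSTL1 (0.20) and CCDC80 (0.22). For FSTL3, with a spread of 1.37, they were FKBP10 (0.21), SMO (0.27) and TGFB1I1 (0.27). For FST, with a spread of 0.46, they were EFEMP1 (0.23), PDCD4 (0.24) and TFDP2 (0.25). For INHA, with a spread of 0.58, the nearest genes FOXO1 (0.36), CASQ1 (0.38) and TELO2 (0.39) were farther away in relation to its own spread. INHA had group means of 1.96 to 2.26 CPM, under the 5 CPM asked of the other genes. The counting error expected at those means was 0.314 to 0.412 CPM (SD). Its part in the distances of INHA was not tested. All libraries share the sort and depth differences described above, so the root mean square differences describe likeness only.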

How the data were processed

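RNA was sequenced from 4 groups of 6 libraries, each made from 500 ng of total RNA with the TruSeq kit, per the labels' protocols. The deposited counts are raw reads per gene made with featureCounts 1.5.1, per the submitters' processing notes. Aligner, genome build and strand use: not given in the sources used here. No coordinates are printed, and reads of overlapping or antisense genes may be shared. The authors' deposited comparison tables hold log2 fold changes, p-values and adjusted p-values. The vehicle libraries stand in 2 of the 3 count tables, with 0 values differing between copies.

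Counts were tested with edgeR 4.0.16 in R 4.3.3 (filterByExpr, TMM, robust quasi-likelihood, 2-sided, Benjamini-Hochberg over all genes tested), with the groups compared alone in each fit and all 24 libraries for the difference of E2 effects. SEs were derived from the F statistic; 95% intervals are 1.96 SE. The script was tested on simulated data. E2 and sort comparisons share libraries, so they are not independent. Alternatives were a replicate block, RLE scaling, DESeq2 1.42.0, no filter, all libraries in each fit, single libraries left out, and replicates 1 to 3 or 4 to 6 alone.

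The labels do not say what equal replicate numbers share. With each group centred, same-numbered libraries correlated at r = 0.284 to 0.838 over 24 pairings across the comparisons. In 24 of 24 the best match was the same number. The numbers were therefore taken as pairs in the pair counts and in the blocked fits. Fits without the block, which give the main differences and SEs, leave this pairing out, and some calls differed with the block.

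All members are named, and other pathway genes are named where they passed a test or served as reference. The members, lists and tests were chosen with earlier results of these data known.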

Additional observations from a re-analysis of the deposited data

Results flagged for a closer look

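The level of INHA in unsorted E2 replicate 2 was 1.03 CPM, well under the next library of its group at 1.84 CPM. The gap took 0.626 of the group's range, just over Dixon's 95% critical value for 6 samples. It was the 1 group so marked of 36 checked, and chance marks about 1 in 20.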

How the results depend on the processing

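With replicate pairing as a replicate block, the count of members called for E2 in sorted cells went from 1 to 3. It was 2 with DESeq2, 0 with no filter, 2 with all 24 libraries in the fit, 0 in replicates 1 to 3 and 3 in replicates 4 to 6. It was 0 to 1 with a library left out and 3 in each of 6 blocked fits with a pair left out, alternatives chosen after seeing the data. Genes called there numbered 196 without the block, 1896 with it, 400 with DESeq2, 563 in replicates 1 to 3, 1277 in replicates 4 to 6, 125 to 208 with a library left out and 1361 to 1893 in the blocked fits with a pair left out. For E2 in unsorted cells the 37 genes called became 790 with the block, 122 with DESeq2, 73 with all 24 libraries, 67 in replicates 1 to 3, 730 in replicates 4 to 6, 11 to 48 with a library left out and 451 to 822 in the blocked fits. For the difference of E2 effects, 4 genes became 70 with the block, 17 with DESeq2, 0 with no filter, 2 in replicates 1 to 3, 47 in replicates 4 to 6, and 0 to 4 with a library left out. With a library left out, members called for the sort numbered 5 to 6 with vehicle and 6 to 7 with E2. The call of ACVR1 for the sort with E2 was lost with RLE scaling (edgeR adjusted p = 0.0548) and with no filter (0.0682). Among members, the block changed no calls other than those given for FST, ACVR1B and ACVR2A. The causes were not tested. Depth limits INHA most, at 3 to 112 reads a library.

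Signs turned only where a result had not been called without the block; values are log2. In replicates 1 to 3, the sort with vehicle gave -0.071 for ACVR1, the sort with E2 gave -0.12 for INHA, and E2 in sorted cells gave -0.16 for INHA, -0.083 for FSTL3 and -0.042 for BAMBI. In replicates 4 to 6, E2 in sorted cells gave -0.032 for ACVR2B. For E2 in unsorted cells FST was -0.029 with the block and -0.10 in replicates 4 to 6, and FSTL3 was -0.013 in replicates 1 to 3. For the difference of E2 effects, FSTL1 was -0.0032 with the block and -0.0060 with no filter, and replicates 1 to 3 gave -0.087 for INHBA, -0.056 for FSTL3, -0.051 for FSTL1 and 0.0065 for ACVR2A. With libraries or pairs left out, the sort with vehicle ranged from -0.30 to 0.0078 for INHA. E2 in sorted cells ranged from -0.0069 to 0.31 for INHA, -0.21 to 0.13 for INHBA, -0.0075 to 0.23 for FSTL3 and -0.14 to 0.13 for FSTL1. E2 in unsorted cells ranged from -0.31 to 0.0046 for INHA, -0.071 to 0.15 for FST, -0.11 to 0.15 for FSTL3, -0.056 to 0.022 for FSTL1 and -0.013 to 0.044 for ACVR1B. The difference of E2 effects ranged from -0.16 to 0.18 for INHBA, -0.034 to 0.23 for FSTL3, -0.072 to 0.14 for FSTL1, -0.14 to 0.038 for ACVR2A and -0.43 to 0.35 for FSHB.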
